A study of Homo sapiens with 6 samples.

Results

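The enzymes of haem synthesis and the mitochondrial iron importer SLC25A37 (mitoferrin 1) were followed in K562 cells that received 1 of 3 plasmids. The members were the rows of the count tables whose NCBI Gene identifier belongs to ALAS1, ALAS2, ALAD, UROS, UROD, CPOX, PPOX, FECH or SLC25A37, which gave 9 genes of the 25702 identifiers listed. Of these genes, 8 encode enzymes, and they cover 7 of the 8 steps from glycine to haem, with a pair of genes for the first step. The remaining step is not analysed here.

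K562 is an established erythroleukaemic line that was grown from chronic myeloid leukaemia. The cells were nucleofected with the vector pCMV-HA, either empty (EV), carrying MXD3, or carrying the fusion STIM1::MXD3, and had no other treatment. Each of the 3 groups had 2 libraries, described as independent transfections, so 6 poly A libraries were compared. The comparisons addressed what each insert changes against EV and whether the fusion differs from MXD3. MXD3 is a basic helix-loop-helix repressor that opposes MYC. In the fusion, the amino-terminal repression region of MXD3 gives way to the signal peptide end of STIM1. Transient expression from a strong viral promoter in 1 cell line limits each group as a model, since a library can mix cells that took up plasmid with cells that did not.

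Haem is made by a pathway that starts in mitochondria, passes through the cytosol and ends in mitochondria, where iron is put into protoporphyrin. Red cell precursors run it at a high rate for haemoglobin and use their own enzyme for the first step, ALAS2, while other cells use ALAS1, which haem itself holds down. GATA1, KLF1 and NFE2 are erythroid transcription factors known for regulating genes of this pathway.

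Total counts were between 53048343 and 63835779 per library, and 17375 to 17836 genes were detected. The members had 1300 to 27540 counts per library, so that the counting error of a value was between 0.603% and 2.77%. MXD3 was 9.33 and 11.7 counts-per-million (CPM) in EV, 2523 and 2162 in MXD3, and 1975 and 1849 in STIM1::MXD3, as the labels say. STIM1, of which the fusion plasmid carries the start, was 205 and 176 CPM in EV and 471 and 453 in STIM1::MXD3, a difference that did not pass the test (adjusted p = 0.359, edgeR with Benjamini-Hochberg adjustment). It passed with the replicate block (adjusted p = 4.27e-07), in DESeq2 (5.73e-10) and without the filter on low counts (0.00323), and the other alternatives gave an adjusted p between 0.329 and 1. All 12 of the K562 markers examined were expressed above the filter on low counts, while MS4A1, a B cell marker, had 0 counts in every library. The mitochondrial share of the counts was 1.45% to 3.73%, with no order by plasmid or by replicate number.

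The sequences before the start sites are shown for ALAS2, ALAS1, CPOX and PPOX, none of which was called between plasmids. This display holds every member promoter with a match to the letters marked below, and that of ALAS1, which held none. The promoters of ALAD, UROD and FECH and the upstream one of PPOX, not shown, also held none. All came from RefSeq promoters (GRCh38.p14), which held 9 promoters for 7 of the member genes, with no entry for UROS or SLC25A37. Each line is the 150 bases before the annotated start, read 5′ to 3′ on the strand of the gene. Capitals mark matches to AGATAA (a form of the letters GATA factors bind), CCACCC (the CACCC box of KLF factors) or TGAGTCA (the NF-E2 core), on either strand. Other forms of the GATA letters were not searched. TTATCT is AGATAA, and GGGTGG is CCACCC, read on the opposite strand.
ALAS2, chrX:55030978-55031127 (minus strand), the erythroid gene of the first step: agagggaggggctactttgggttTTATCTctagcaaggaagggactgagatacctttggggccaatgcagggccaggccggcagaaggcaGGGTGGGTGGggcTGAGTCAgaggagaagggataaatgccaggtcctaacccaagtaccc
ALAS1, chr3:52197933-52198082 (plus strand), the member furthest from EV in MXD3: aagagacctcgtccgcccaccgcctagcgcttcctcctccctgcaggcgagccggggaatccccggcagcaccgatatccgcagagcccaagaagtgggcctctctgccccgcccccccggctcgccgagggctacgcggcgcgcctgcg
CPOX, chr3:98593612-98593761 (minus strand), lower than EV in all 4 libraries with an insert: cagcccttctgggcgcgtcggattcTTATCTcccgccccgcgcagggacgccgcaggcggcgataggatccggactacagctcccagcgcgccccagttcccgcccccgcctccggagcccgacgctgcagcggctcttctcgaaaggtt
PPOX, chr1:161166496-161166645 (plus strand), the downstream of its starts: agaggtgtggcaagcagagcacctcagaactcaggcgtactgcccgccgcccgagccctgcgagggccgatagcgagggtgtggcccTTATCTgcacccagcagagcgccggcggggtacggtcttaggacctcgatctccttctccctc

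ALAS2 held 3 kinds of match close together, with TTATCT beginning 127 bases before the start, GGGTGG at 60 and again at 56, where the matches overlap, and TGAGTCA at 47. CPOX held TTATCT at 125 and at 207 bases before its start, the latter outside the stretch shown. PPOX held it at 63 bases and GGGTGG at 188. Over the 250 bases searched, AGATAA was found before 9.17% of all 35116 promoters and 3 of the 9 member promoters. CCACCC was found before 31.3% of all promoters and 2 member promoters, and TGAGTCA before 4.2% and 1. The E-box CACGTG, which MYC, MAX and MXD proteins bind, was found before 6.34% of all promoters and 0 of the 9, and the NRF1 core GCATGCGC before 2.63% and 0. These are matches of letters and were not tested as sites of binding.

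ALAS1 (Gene ID 211; GRCh37 chromosome 3, 52232102 to 52248343, plus strand) encodes the housekeeping enzyme of the first step, the joining of glycine and succinyl-CoA. Its level was 52.1 and 47.3 CPM in EV, 33.3 and 40.2 in MXD3, and 53.3 and 43.1 in STIM1::MXD3. Both MXD3 libraries were below both EV libraries and below both STIM1::MXD3 libraries, while EV and STIM1::MXD3 overlapped. ALAS2 (Gene ID 212; chromosome X, 55035488 to 55057410, minus strand) encodes the erythroid enzyme of the same step. It was at 191 and 148 CPM in EV, 147 and 148 in MXD3, and 192 and 146 in STIM1::MXD3. The replicate 1 libraries of EV and STIM1::MXD3 stood above the other libraries, which lay between 146 and 148 CPM. In bulk RNA, fewer cells that express a gene and less RNA in each cell cannot be told apart.

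ALAD (Gene ID 210; chromosome 9, 116148592 to 116163570, minus strand) encodes the cytosolic enzyme of the second step, which makes porphobilinogen. It had 33.3 and 29.9 CPM in EV, 30.5 and 26.7 in MXD3, and 31.2 and 27.8 in STIM1::MXD3. Replicate 2 was the lower library in every group, and the groups overlapped. UROS (Gene ID 7390; chromosome 10, 127473549 to 127511827, minus strand) closes the tetrapyrrole ring. It had 29.0 and 33.3 CPM in EV, 25.1 and 34.3 in MXD3, and 23.7 and 32.9 in STIM1::MXD3. Here replicate 2 was the higher library in every group, and the replicate 1 values were all below the replicate 2 values.

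UROD (Gene ID 7389; chromosome 1, 45476622 to 45481247, plus strand), which decarboxylates uroporphyrinogen, was at 382 and 415 CPM in EV, 392 and 422 in MXD3, and 390 and 438 in STIM1::MXD3. Its replicate 1 values also lay below its replicate 2 values whatever the plasmid. Exons of HECTD3 on the opposite strand overlap 9.31% of the exon bases of UROD, and the use of strand in the counting was not stated, so its counts are uncertain to that extent.

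CPOX (Gene ID 1371; chromosome 3, 98298290 to 98312492, minus strand) encodes the coproporphyrinogen oxidase of the mitochondrial intermembrane space. Its level was 96.4 and 96.0 CPM in EV, 87.7 and 78.4 in MXD3, and 89.3 and 75.1 in STIM1::MXD3. Every library with an insert was below both EV libraries. PPOX (Gene ID 5498; chromosome 1, 161135846 to 161147803, plus strand), whose product oxidizes protoporphyrinogen, was at 53.6 and 54.8 CPM in EV, 45.2 and 53.5 in MXD3, and 55.0 and 58.1 in STIM1::MXD3. The 3 groups of PPOX did not overlap, although the nearest values of EV and MXD3, and of EV and STIM1::MXD3, were close. B4GALT3 on the opposite strand overlaps 23.7% of the exon bases of PPOX, and a gene on the same strand (ENSG00000285635) 5.16% of those of CPOX.

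FECH (Gene ID 2235; chromosome 18, 55211609 to 55253964, minus strand) encodes ferrochelatase, which inserts the iron and completes haem. It was at 163 and 149 CPM in EV, 141 and 132 in MXD3, and 165 and 123 in STIM1::MXD3. The MXD3 libraries were below the EV libraries, and the STIM1::MXD3 libraries were the highest and the lowest of all. SLC25A37 (Gene ID 51312; chromosome 8, 23386469 to 23432976, plus strand) brings iron into the mitochondria of erythroid cells. It was at 377 and 256 CPM in EV, 289 and 245 in MXD3, and 319 and 223 in STIM1::MXD3. All of its replicate 1 values were above all of its replicate 2 values.

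**Figure D1:**
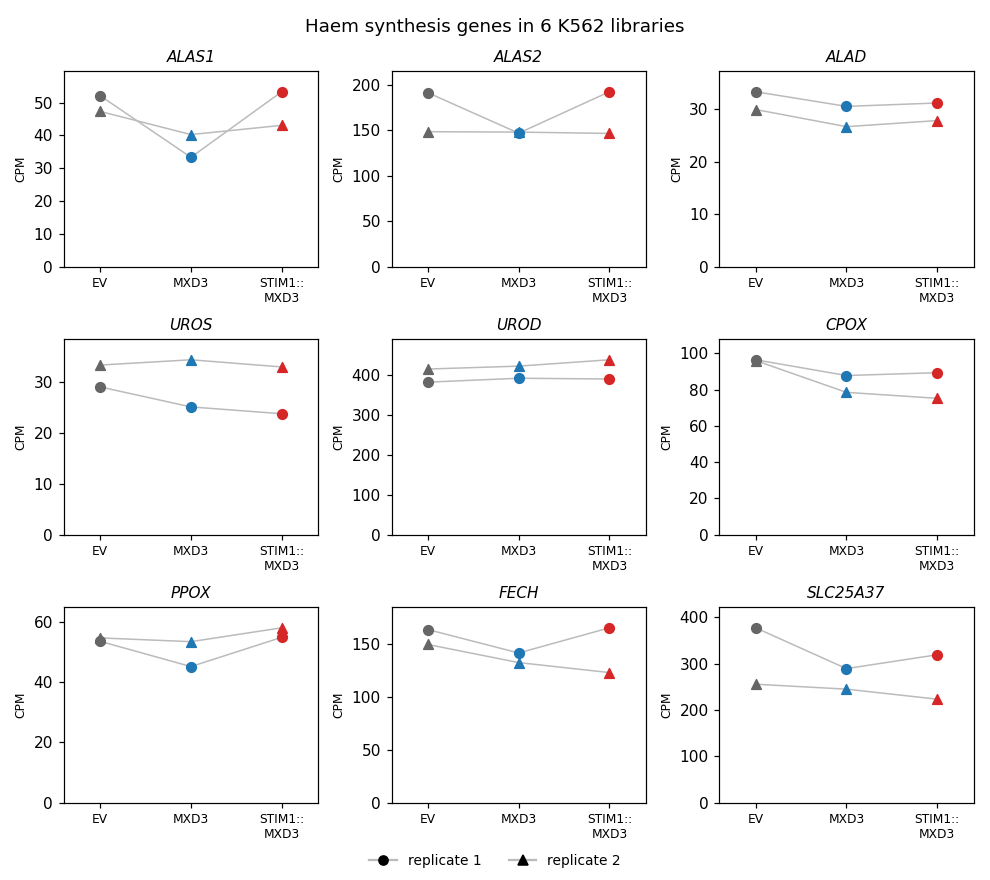
Level of each member in CPM (vertical axis, from 0) in the 6 libraries, by plasmid; circles are replicate 1, triangles replicate 2, and lines join libraries with the same number. In UROS, UROD and SLC25A37 the circles and triangles separate whatever the plasmid, and in ALAS1 both MXD3 libraries lie lowest, at 33.3 and 40.2 CPM.

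Levels of different genes were compared per length, as CPM per kilobase of the canonical transcript. In that unit UROD was highest, with a mean of 340.6 over the 6 libraries (range 320.1 to 367.1). ALAS2 followed at 83.55 (75.46 to 99.08) and SLC25A37 at 60.99 (47.8 to 80.76), and these ranges overlapped. CPOX (mean 32.17) and PPOX (30.8) also overlapped each other. UROS at 22.23 overlapped FECH at 18.92, which overlapped ALAS1 at 18.9, and ALAD was lowest at 9.558 (8.522 to 10.65), below every value of the other members. With the length of all annotated exons in place of the canonical transcript, UROD, ALAS2, SLC25A37 and CPOX kept the first 4 places. UROS moved to the 9th place and PPOX to the 7th. The means of UROD and ALAS2 were then 100.8 and 79.18, so the size of the lead of UROD depended on the length chosen.

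**Figure D2:**
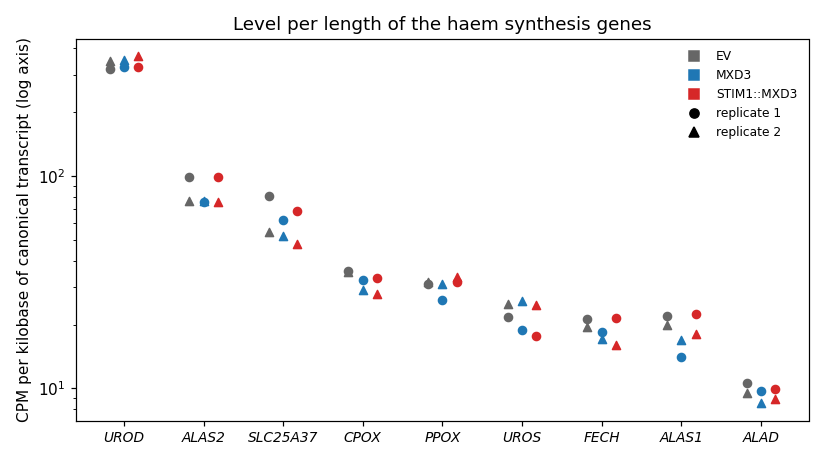
Level per length (CPM per kilobase of canonical transcript, log axis) of the 9 members in order of their mean; colours are the plasmids, circles replicate 1 and triangles replicate 2. UROD lies highest, at 320.1 to 367.1, ALAD lowest, at 8.522 to 10.65, and the other neighbours overlap except SLC25A37 with CPOX and PPOX with UROS.

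The erythroid enzyme of the first step exceeded the housekeeping one in every library. The ratio of ALAS2 to ALAS1 per length was 4.49 and 3.84 in EV, 5.39 and 4.5 in MXD3, and 4.41 and 4.16 in STIM1::MXD3. The MXD3 ratios were above the others by 0.01 at the closest, and the ratio itself was not tested.

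Against EV, MXD3 gave lower values in 8 of the 9 members, and none passed the test. The median log2 fold change of the members was -0.19, beside 0.001 for all genes tested. ALAS1 differed most, with a log2 fold change of -0.43 ± 0.17 (SE; 95% interval -0.83 to -0.04), or 0.74 of the EV level. Its adjusted p was 0.999 in edgeR's quasi-likelihood test with Benjamini-Hochberg adjustment, and 7.13% of all genes tested had a lower value. The alternatives gave ALAS1 an adjusted p between 0.138, with the replicate number as a block, and 1, and a log2 fold change between -0.59 and -0.29. It was lower in both same-numbered pairs of libraries, by -0.64 in replicate 1 and -0.23 in replicate 2 on the log2 scale.

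For SLC25A37 the log2 fold change of MXD3 against EV was -0.24 ± 0.24 (SE), for CPOX -0.21 ± 0.14, for ALAS2 -0.20 ± 0.18 and for FECH -0.19 ± 0.16, and edgeR with Benjamini-Hochberg adjustment gave all of them an adjusted p of 0.999. Without EV replicate 1 the SLC25A37 value became 0.07 and the ALAS2 value -0.01. ALAD was at -0.14, PPOX at -0.13 and UROS at -0.07, and UROD, at 0.03, was the member above 0. In this fit, which has no replicate block, the 95% intervals of these 8 members all spanned 0. They reached as far as -0.82 for SLC25A37 and 0.46 for UROS, so this fit does not exclude changes of that size in those members. With the block the SE were smaller. The log2 fold changes were then -0.22 ± 0.09 (SE) for SLC25A37, -0.21 ± 0.09 for CPOX and -0.08 ± 0.11 for UROS, and none of them passed the test.

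Over all 15431 genes tested, 1 gene was called in MXD3 against EV, which is 0.00648% and was MXD3 itself, so 0 of 9 called members is near the background. Before adjustment, 1 member (ALAS1) and 287 genes in all had a p under 0.05, and DESeq2 also called 0 members. The fit with a replicate block called 45 genes (0.292%), again with 0 members. In that fit 3 members (ALAS1, CPOX and SLC25A37) had an unadjusted p under 0.05, as did 2149 of the 15431 genes. Both MXD3 libraries were below both EV libraries in 5 members (ALAS1, ALAS2, CPOX, PPOX and FECH) and above them in 0, while 14.8% of all genes tested lay wholly below. For ALAS2 the groups were apart by only 0.44 CPM (148.28 against 147.84). The nearest values of PPOX were closer still, at 53.64 CPM in EV and 53.53 in MXD3. Within replicate 1 the members had a median log2 difference of -0.21, and within replicate 2 of -0.06.

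STIM1::MXD3 against EV gave 7 members lower and 2 higher, and 0 passed the test. The EV libraries are the same ones as in the MXD3 comparison, so these values are not independent of those above. CPOX had a log2 fold change of -0.23 ± 0.14 (SE; 95% interval -0.55 to 0.10), and was lower in both same-numbered pairs, by -0.11 and -0.35. SLC25A37 was at -0.22 ± 0.24 and lower in both pairs, by -0.24 and -0.19, although the value was 0.09 without EV replicate 1. UROS was at -0.14 ± 0.22, FECH at -0.12 ± 0.16 and ALAD at -0.10 ± 0.15.

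ALAS1 in STIM1::MXD3 had a log2 fold change of -0.04 ± 0.17 and ALAS2 of -0.00 ± 0.18. Their 95% intervals were -0.44 to 0.35 and -0.43 to 0.43. Neither differed from EV beyond the spread of this fit, which has no replicate block. UROD and PPOX were both at 0.06. The adjusted p of every member was 1 in edgeR with Benjamini-Hochberg adjustment. The median of the members was -0.10, beside 0.010 for all genes tested. One gene of 15431 was called (0.00648%), with 147 genes and 0 members at an unadjusted p under 0.05, and DESeq2 called 3 genes and 0 members. With the replicate block 3 genes were called (0.0194%), again with 0 members. In that fit 2 members (CPOX and SLC25A37) had an unadjusted p under 0.05, as did 1312 genes in all. The block gave log2 fold changes of -0.05 ± 0.12 (SE) for ALAS1 and -0.00 ± 0.10 for ALAS2. PPOX lay wholly above EV and CPOX wholly below, 2 of 9 members, where 22% of all genes tested lay apart in either direction. The nearest values of PPOX were 54.96 CPM in STIM1::MXD3 and 54.77 in EV.

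**Figure D3:**
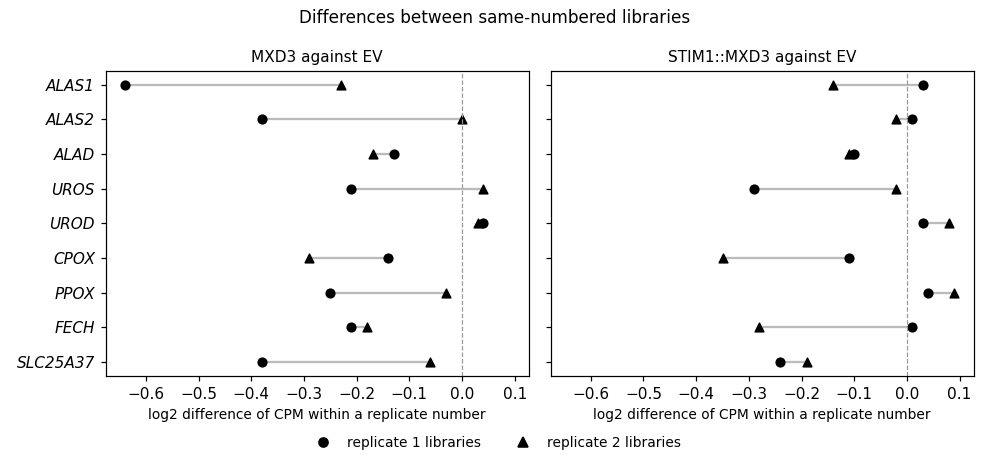
Log2 difference of CPM (horizontal axis) between same-numbered libraries for each member, MXD3 against EV and STIM1::MXD3 against EV; circles are replicate 1, triangles replicate 2, and the dashed line marks no difference. In MXD3, ALAS1 is lower in both pairs (-0.64 and -0.23) and ALAS2 by -0.38 in replicate 1 and -0.00 in replicate 2, and in STIM1::MXD3, CPOX is lower in both (-0.11 and -0.35).

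Between the inserts, STIM1::MXD3 gave higher values than MXD3 in 7 of the 9 members, and 0 passed the test. The ALAS1 value was 0.39 ± 0.17 (SE; 95% interval -0.00 to 0.78), with an adjusted p of 1 in edgeR with Benjamini-Hochberg adjustment and between 0.641 and 1 under the alternatives. The difference was 0.68 on the log2 scale in replicate 1 and 0.10 in replicate 2. ALAS2 and PPOX were both at 0.20, with SE of 0.18 and 0.13, and the other 6 members were between -0.07 and 0.07. Without STIM1::MXD3 replicate 1, ALAS2 was at -0.01.

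The median of the members was 0.04, beside 0.008 for all genes tested. No gene was called (0%), with 156 genes and 0 members at an unadjusted p under 0.05, while the replicate block and DESeq2 each called 1 gene (0.00648%) and 0 members. With the block, 1 member (ALAS1) and 1001 genes in all had an unadjusted p under 0.05. Both STIM1::MXD3 libraries were above both MXD3 libraries for ALAS1 and PPOX, where 10.9% of all genes tested lay wholly above.

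**Figure D4:**
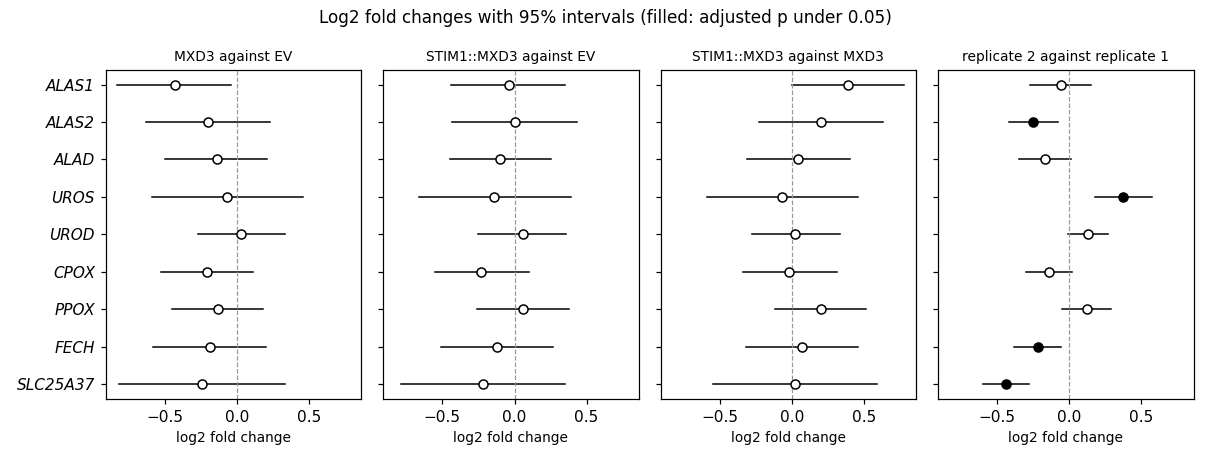
Log2 fold change of each member (horizontal axis) with its 95% interval in the 4 comparisons; filled points have an adjusted p under 0.05. In the plasmid comparisons no point is filled, and in replicate 2 against replicate 1 the filled points are ALAS2 at -0.25, UROS at 0.37, FECH at -0.22 and SLC25A37 at -0.44.

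Each group had a replicate 1 and a replicate 2, and 4 members differed between these numbers. Fitted over all 3 groups, SLC25A37 had a log2 fold change of -0.44 ± 0.07 (SE; adjusted p = 4.48e-04, edgeR with Benjamini-Hochberg adjustment) in replicate 2 against replicate 1, or 0.738 of the level. ALAS2 was lower in replicate 2 as well, at -0.25 ± 0.08 (adjusted p = 0.0274), and so was FECH, at -0.22 ± 0.08 (adjusted p = 0.0405), while UROS was higher, at 0.37 ± 0.09 (adjusted p = 0.00616). So 4 of the 9 members were called, where 29.2% of all genes tested were called, 2020 higher and 2479 lower. The labels say no more of a replicate number than the number itself, and what the libraries that share it have in common was not tested.

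SLC25A37 was lower in replicate 2 in each group, with log2 differences of -0.56 in EV, -0.24 in MXD3 and -0.52 in STIM1::MXD3, and it kept an adjusted p of at most 0.00306 when any library was left out. UROS was higher in each group, by 0.20, 0.45 and 0.47, with an adjusted p of at most 0.0454. The ALAS2 differences were -0.37 in EV and -0.39 in STIM1::MXD3 but 0.01 in MXD3, and those of FECH were -0.13, -0.43 and -0.10 in the same order of plasmids. ALAS2 was no longer called without either EV library or either STIM1::MXD3 library (-0.16 to -0.19), nor was FECH without STIM1::MXD3 replicate 1 or 2 (-0.11 and -0.09). The count of all called genes dropped to 2580 without STIM1::MXD3 replicate 1 and to 2902 without STIM1::MXD3 replicate 2.

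The members that did not pass were ALAD at -0.17 ± 0.09, CPOX at -0.14 ± 0.07, UROD at 0.13 ± 0.06, PPOX at 0.12 ± 0.08 and ALAS1 at -0.06 ± 0.10. Of the variation of ALAS1 over the 6 libraries, as a share of the sum of squares of log2 CPM, 71% lay between plasmids and 1.56% between replicate numbers. For CPOX and PPOX the plasmid shares were 60.2% and 55.9%. For UROD, UROS, SLC25A37 and ALAD the replicate number took the larger share, with 86.8%, 81.9%, 75.3% and 65.8%. The same held for FECH, with 49.6% against 27.2% for plasmid, and for ALAS2, with 48.3% against 25.1%. The medians over the genes with a mean of at least 5 CPM were 25.2% for plasmid and 50.9% for replicate number. Such shares exceed 0 through the spread alone, so they are descriptions.

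Across the 6 libraries SLC25A37 varied in parallel with ALAD (Pearson r = 0.91), FECH (0.88) and ALAS2 (0.86), and opposite to UROD (-0.95). These correlations describe 6 libraries that share plasmids and replicate numbers.

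Other genes that bear on haem were read from 7 lists. Of the 49 listed genes, 47 were tested, and 0 were called in any of the 3 plasmid comparisons. HMOX1, the inducible haem oxygenase that breaks haem down, had 0 to 2 counts per library and was not tested, whereas the constitutive HMOX2 was at 25.2 to 39.3 CPM. FLVCR2 had 0 to 8 counts and was not tested. LYRM4, a partner of the cysteine desulphurase of iron-sulphur cluster assembly, was the only listed gene with an unadjusted p under 0.05 between plasmids. Its log2 fold change in STIM1::MXD3 against MXD3 was 0.33 (unadjusted p = 0.0411, edgeR quasi-likelihood test).

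The fitted log2 fold changes of the erythroid transcription factors against EV were all below 0 in both plasmid groups, 7 of 7 with 0 called. Their median was -0.11 in MXD3 and -0.12 in STIM1::MXD3, and NFE2 was at -0.03 in both. Of all genes tested, 50.2% were above 0 in MXD3 and 52.1% in STIM1::MXD3. Both comparisons use the same EV libraries. Within replicate 1, KLF1 was above EV by 0.02 in MXD3 and 0.05 in STIM1::MXD3 on the log2 scale. GATA1 was at 320 and 273 CPM in EV, 268 and 240 in MXD3, and 304 and 241 in STIM1::MXD3, so that its MXD3 libraries lay below its EV libraries. Its log2 fold change in MXD3 was -0.22 ± 0.16 (SE).

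Of the globin genes, whose products take up the haem, 5 of 7 were called in replicate 2 against replicate 1, each lower in replicate 2, among them HBA1 (-1.14), HBZ (-0.90) and HBG1 (-0.76). The alpha and gamma globin genes have near-identical copies, so their counts are uncertain. Of the 7 erythroid factors, KLF1 (-0.55), ZFPM1 (-0.50), GATA1 (-0.24) and NFE2 (-0.24) were lower and LMO2 (0.33) was higher. GATA1 was no longer called without STIM1::MXD3 replicate 1 or 2 (-0.20 and -0.18), nor NFE2 when any 1 EV or MXD3 library was left out (-0.22 to -0.24 in log2 fold change).

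KLF1, an activator of globin genes, was at 324 and 260 CPM in EV, 329 and 211 in MXD3, and 335 and 206 in STIM1::MXD3. Of the haem breakdown and sensing genes, BACH1 (-0.58), EIF2AK1 (-0.45), CLPX (-0.29) and NFE2L2 (-0.23) were lower in replicate 2 and HMOX2 (0.36) was higher, 5 of 7 tested. CLPX lost its call without STIM1::MXD3 replicate 1 or 2 (-0.19 and -0.18), and NFE2L2 when any 1 EV or STIM1::MXD3 library was left out (-0.18 to -0.22). BACH1 is a repressor that haem inactivates, and EIF2AK1 is the kinase that slows translation when haem is short.

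Of the carriers and transporters, SLC25A38, which supplies glycine for the first step, was lower in replicate 2 (-0.25) and SLC48A1, a haem transporter, was higher (0.46), 2 of 8 tested. COX10 (-0.30) was called among the 2 genes of haem A synthesis and ACO1 (-0.29) among the 3 of iron-responsive regulation. Of the 13 genes of iron-sulphur cluster assembly, 1 was called. SLC25A38 and COX10 lost their calls when any 1 MXD3 or STIM1::MXD3 library was left out (-0.20 to -0.25 and -0.17 to -0.31), and ACO1 without either STIM1::MXD3 library (-0.20 and -0.18). The background for each of these counts is the same 29.2% of all genes tested.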

How the data were processed

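Poly A RNA was sequenced as read pairs from 6 K562 libraries. The authors deposited 1 table per library, which holds counts of reads for each NCBI Gene identifier, not normalised. The submitters' processing notes name HISAT2 2.2.1, featureCounts 2.0.1 and the hg19 build. The annotation, the use of strand and the counting of read pairs were not given in the sources used here. Groups and replicate numbers came from the labels. Gene symbols were matched for 23696 of 25702 identifiers, and unmatched identifiers stayed in library sizes.

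filterByExpr kept 15431 genes, including all 9 members, and TMM scaled the libraries. Differences were tested two-sided in edgeR 4.0.16 (R 4.3.3) by its quasi-likelihood F test, in 1 model of all 6 libraries that had a coefficient for each group and nothing else. The replicate comparison added the replicate number. Benjamini-Hochberg adjustment covered every gene tested, with a threshold of 0.05, and the scripts were checked on simulated counts. CPM are TMM-scaled, and log2 CPM used a prior count of 2. The p-values measure the spread between the libraries of 1 line, which the study calls independent transfections. Intervals on counts cover counting error only.

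Whether same-numbered libraries pair was checked from the counts, since the labels give a number only. Their deviations from the group means correlated across genes at r = 0.27 (EV with MXD3), 0.364 (EV with STIM1::MXD3) and 0.45 (the 2 inserts) over all genes tested. Over the 10250 with a mean of at least 5 CPM, r was 0.621, 0.707 and 0.792. A fit with the replicate number as a block was therefore run. Its counts of called genes and members are given for each plasmid comparison. Its SE were smaller for every member, and its log2 fold changes are given for only some of them. Alternatives were this block, DESeq2 1.42.0 (its size factors, or its Wald test), no filter on low counts, halved counts, the libraries of the compared groups alone, and leaving out each library. Applying them to the named genes that are no members was chosen after seeing the data. Gene positions are GRCh37 and promoter sequences GRCh38.p14. Named genes were the members, MXD3, STIM1, list genes past the threshold or among the 2 smallest p-values per list and comparison, and the 5 genes most like ALAS1, ALAS2 and SLC25A37. MS4A1, HMOX1 and FLVCR2 were named after their values were seen. The members and lists were chosen with earlier results of these data known. The result of 1 listed gene is not reported here.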

Additional observations from a re-analysis of the deposited data

How the results depend on the processing

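No member changed its call or direction under an alternative other than leaving out a library. STIM1 passed the threshold in STIM1::MXD3 against MXD3 with the replicate block (log2 fold change 1.42), in DESeq2 (1.41) and without the filter (1.42), as it did against EV, and MXD3, GATA1 (in MXD3 against EV) and LYRM4 (between the inserts) changed no call between plasmids. Genes called in STIM1::MXD3 against EV numbered 1, and 3 with the replicate block, 3 with DESeq2 and 2 without the filter. In MXD3 against EV the count was 1, and 45 with the replicate block, 3 with DESeq2 and 1 to 2 when a library was left out (2 without MXD3 replicate 2). In STIM1::MXD3 against MXD3 it was 0, and 1 with the replicate block, with DESeq2 or without the filter. Members called stayed at 0 in these comparisons under every alternative run, and the block changed no call of a member. In replicate 2 against replicate 1, leaving out a library gave 2580 to 4424 called genes and 2 to 4 called members.

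Leaving out 1 library turned the direction of log2 fold changes, none of them past the threshold. Their ranges in STIM1::MXD3 against EV were ALAS1 (-0.21 to 0.094), ALAS2 (-0.21 to 0.19), UROS (-0.40 to 0.0806), UROD (-0.0391 to 0.14), FECH (-0.35 to 0.0711) and SLC25A37 (-0.50 to 0.087). In MXD3 against EV they were UROS (-0.32 to 0.15), UROD (-0.0341 to 0.0962) and SLC25A37 (-0.50 to 0.065). In STIM1::MXD3 against MXD3 they were ALAS2 (-0.00936 to 0.38), ALAD (-0.0408 to 0.13), UROS (-0.33 to 0.19), UROD (-0.0716 to 0.10), CPOX (-0.15 to 0.0953), FECH (-0.16 to 0.26) and SLC25A37 (-0.26 to 0.25), and in replicate 2 against replicate 1 ALAS1 (-0.21 to 0.0831). The cause of these changes was not tested. In fits without a library, its group has 1 library, which is assumed to vary like the others. The counting error of the members was at most 2.77%. Same-numbered libraries also differed together, so that fits without the block hold that difference within the spread.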

Other observations

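The genes whose log2 CPM followed ALAS1, ALAS2 and SLC25A37 most closely over the 6 libraries were taken from the genes with a mean of at least 5 CPM, of which 10249 others were searched. For ALAS1 they were CAMLG (Pearson r = 0.992), HDAC1 (0.992), GUSB (0.989), INO80C (0.985) and RPL9 (0.971). For ALAS2 they were PLRG1 (0.998), ZDHHC14 (0.990), MRPL32 (0.989), ISCU (0.986) and ABHD14A (0.982). Among these ISCU, the scaffold on which iron-sulphur clusters are built, was also on the list of iron-sulphur genes. For SLC25A37 they were VRK3 (0.995), TMEM64 (0.995), SHARPIN (0.993), DDX54 (0.992) and FBXW11 (0.991). Each r was the highest of many over 6 libraries that share plasmids and replicate numbers, so that it describes these libraries and carries no test.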
